A study of Rattus norvegicus with 24 samples.

Results

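The subject is a pair of microRNAs (miRNAs) of red blood cell precursors, miR-451 and miR-144, measured in peripheral blood mononuclear cells (PBMC) of rats. They were taken by name, as the array entries rno-miR-451 and rno-miR-144, and are 2 of the 677 rat miRNAs on the array. The study asked how blood cells respond to therapies for collagen-induced arthritis (CIA), a model of rheumatoid arthritis in which rats are immunised with bovine type II collagen. All animals were female Wistar rats, every sample was taken under deep anaesthesia, and PBMC were separated on a Ficoll gradient, a step that removes most red cells. The healthy group (NOCIA, NORA in the labels) was sampled before therapy, at 1 hour and at 34 days. The arthritic group (CIA, RA in the labels) was sampled before any therapy. Arthritic animals under 4 arms were sampled at 1 hour and at 34 days: mechanical stimulation by subcutaneous needle (MS, AP in the labels), methotrexate (MTX), saline as placebo for methotrexate (PLA), and isoflurane in place of ether during sampling with no other therapy (ANE). For NOCIA at 34 days a line of the label names 1 hour, and the title's 34 days was used. There are thus 12 groups, each with 2 arrays of separately labelled samples. By the study's methods, rats were sacrificed once their blood was drawn, so the time points hold different animals. Whether the replicates were separate animals is not stated in the labels, so the p-values measure the spread between these samples, which may be partly technical.

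Red cell precursors make miR-451 and miR-144 from a shared primary transcript under the erythroid factor GATA1, and mature red cells, which have lost their nucleus, still carry much miR-451. The miR-144 hairpin is cut by Dicer in the usual way, whereas the miR-451 hairpin is too short for Dicer and is cut by Argonaute 2. In blood work, miR-451 is widely used to read how much red cell material a sample holds. In a bulk sample, fewer red cells and less of the miRNA per cell cannot be told apart.

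The 2 hairpins lie on the plus strand of rat chromosome 10 (RefSeq, build GRCr8), Mir144 at chr10:63459397-63459479 and Mir451a at chr10:63459569-63459640, with 89 bases between them. No other annotated gene overlaps them, and the nearest are Flot2 on the left and Eral1 on the right. They are printed 5′ to 3′ because all results rest on the 4 mature products, which are in capitals.
Mir144 hairpin: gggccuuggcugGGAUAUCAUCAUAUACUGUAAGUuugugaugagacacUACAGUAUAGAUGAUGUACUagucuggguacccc
Mir451a hairpin: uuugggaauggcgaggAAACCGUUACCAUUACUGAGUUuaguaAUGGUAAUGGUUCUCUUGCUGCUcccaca

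The array uses the older star names, so its miR-451 is miR-451-5p of RefSeq, its miR-144 is miR-144-3p, and its miR-144* is miR-144-5p. The 3 mature products that were detected are printed next with the seed, bases 2 to 8, in capitals.
miR-451: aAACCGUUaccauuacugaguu
miR-144: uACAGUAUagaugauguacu
miR-144*: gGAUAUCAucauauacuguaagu
Among the 693 mature rat miRNAs in the RefSeq table, none of these seeds occurs in another miRNA. The pair therefore shares a transcript but no seed. Over bases 2 to 7, miR-144 matches 2 other entries, of the miR-101 family.

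miR-451, miR-144 and the other arm of the miR-144 hairpin, miR-144*, were each detected on 24 of 24 arrays. The other arm of the miR-451 hairpin, miR-451*, was detected on 0 of 24. The total signal of miR-451 ran from 2275 to 28511 and that of miR-144 from 62.7 to 1142, with no saturated spot. The error that the scanner software attached to a single value was 7.60% to 7.85% for miR-451 and 8.19% to 10.67% for miR-144. Each was read by 2 probes of 10 spots, and the log2 signals of the 2 probes correlated across the 24 arrays with r = 0.998 for miR-451 and 0.996 for miR-144. The differences between arrays described next are therefore much wider than the disagreement between probes, whose SD was 0.05 (log2) for miR-451 and 0.10 for miR-144.

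Between 145 and 207 miRNAs were detected per array, and the summed signal ran from 137544 to 519917. The arrays lay on 3 slides of 8, with 4 whole groups on each. Of the leukocyte miRNAs, miR-142-3p of all leukocytes, miR-150 of lymphocytes and miR-223 of myeloid cells were each detected on 24 of 24 arrays. Whole blood or granulocytes would also carry them, so their detection does not check the label PBMC against other blood fractions. The 2 arrays of MS replicate 1 stood apart, with miR-150 at 10.26 (scaled signal, log2) at 1 hour and 9.55 at 34 days, against 11.65 to 13.47 on the other 22. These 2 arrays also had the largest summed signals, 371061 (1 hour) and 519917 (34 days). Their scale factors were the smallest, 0.452 and 0.456, and the next was 0.672 for MTX replicate 1 of day 34. Both MS groups thus hold such an array. Its part in the MS differences that shrank or turned without scaling was not tested. miR-486, a further red cell marker, is not on the array under that name.

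**Figure D1:**
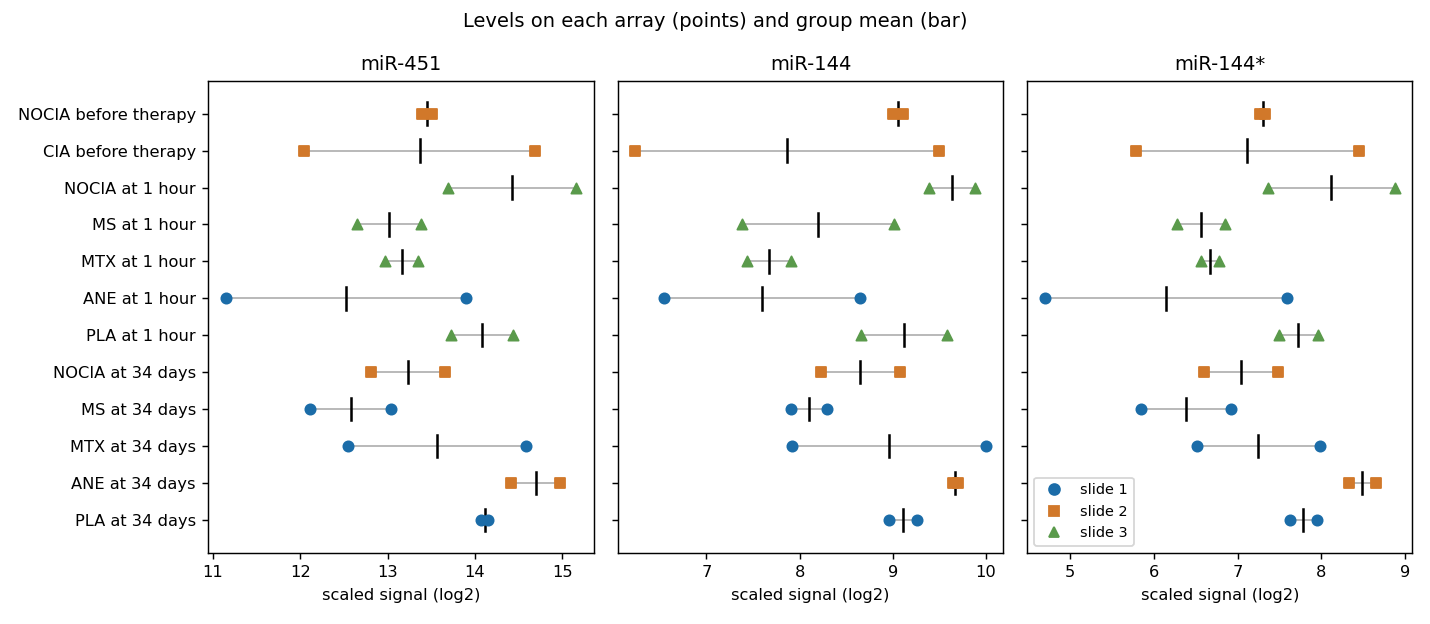
Scaled signal (log2) of miR-451, miR-144 and miR-144* on each of the 24 arrays, with 1 row per group, points coloured by slide and a bar at the group mean. The 2 points of CIA before therapy and of ANE at 1 hour lie far apart in all 3 panels, while those of NOCIA before therapy almost coincide.

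Levels are given as scaled signal on the log2 scale, replicate 1 before replicate 2, and are compared between arrays, not between miRNAs. In NOCIA before therapy miR-451 was at 13.39 and 13.51, and miR-144 at 9.11 and 8.997. In CIA before therapy miR-451 was at 14.68 and 12.05. miR-144 in the same CIA arrays was at 9.50 and 6.24. The healthy replicates were almost equal, whereas the arthritic ones lay on either side of them, replicate 1 above and replicate 2 far below, for both miRNAs. A gap of 6.23-fold in miR-451 and of 9.62-fold in miR-144 between 2 arrays of a group compares with a median gap of 1.10-fold there over the 132 miRNAs detected on all arrays.

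At 1 hour the NOCIA arrays had miR-451 at 13.69 and 15.16, and miR-144 at 9.39 and 9.88. In MS they had miR-451 at 13.39 and 12.65, and miR-144 at 9.01 and 7.39. In MTX miR-451 was at 12.97 and 13.35, and miR-144 at 7.43 and 7.90. The 15.16 of NOCIA replicate 2 was the highest miR-451 value of the series. In ANE at 1 hour miR-451 was at 11.15 and 13.90, and miR-144 at 6.55 and 8.64. In PLA at 1 hour miR-451 was at 14.44 and 13.73, and miR-144 at 8.66 and 9.59. ANE replicate 1 held the lowest miR-451 of the series, and PLA was the only group at 1 hour in which the replicate with more miR-451 had less miR-144.

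At 34 days the NOCIA arrays had miR-451 at 12.81 and 13.66, and miR-144 at 8.23 and 9.07. In MS miR-451 was at 12.11 and 13.04, and miR-144 at 7.91 and 8.30. In MTX miR-451 was at 12.54 and 14.59, and miR-144 at 7.92 and 9.996. The MTX replicates again differed by more than 4-fold in both miRNAs. In ANE at 34 days miR-451 was at 14.42 and 14.98, and miR-144 at 9.64 and 9.70. In PLA at 34 days miR-451 was at 14.15 and 14.07, and miR-144 at 9.26 and 8.96. The ANE and PLA replicates lay close together and high, above every MS array of that day for both miRNAs. Between MS and PLA at 34 days, 71% of the 210 miRNAs tested likewise did not overlap. For ANE against MS that share was not computed. In total signal before scaling, miR-144 of MS (526 and 455) overlapped that of PLA (553 and 412).

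Over all arrays miR-451 spanned 16.1-fold, from 11.15 to 15.16 with a median of 13.58. miR-144 spanned 13.6-fold, from 6.24 to 9.996 with a median of 8.98. The signal of miR-451 alone made up 1.10% to 15.6% of the summed signal of an array, with a median of 6.22%, which is a share of brightness and not of molecules. Much of this span lay inside groups. The replicates of a group differed by more than 4-fold in 3 of 12 groups for miR-451, namely CIA before therapy, ANE at 1 hour and MTX at 34 days, and in the same 3 groups for miR-144.

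**Figure D2:**
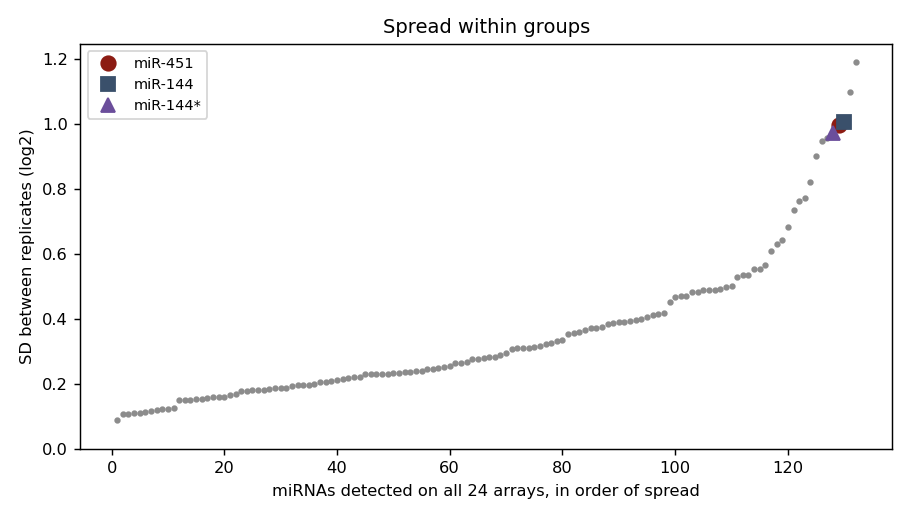
SD between replicates (log2, pooled over the 12 groups) of the 132 miRNAs detected on all 24 arrays, in rising order, with miR-451, miR-144 and miR-144* marked. The 3 lie near the top, between 0.97 and 1.01, against a median of 0.28.

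The SD between replicates, pooled over the 12 groups, was 1.01 (log2) for miR-144 and 1.00 for miR-451. Among the 132 miRNAs these rank as the 3rd and the 4th widest, and miR-144* followed at 0.97, where the median miRNA had 0.28. The group means, each of 2 arrays, had an SD of 0.69 for miR-451 and 0.73 for miR-144. These rank as the 9th and the 6th widest of the 132, where the median was 0.24. A mean of 2 arrays varies less than a single array, so these SDs cannot be set directly against those between replicates. limma's moderated F test across the 12 groups gave F = 1.08 for miR-451 (adjusted p = 0.606) and F = 1.197 for miR-144 (adjusted p = 0.569). Neither of the 2 was thus called, beside 2.38% of the 210 miRNAs tested. By this test the groups did not differ beyond the spread between replicates in either miRNA.

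In the order of group means, ANE at 34 days was highest and NOCIA at 1 hour next for both miRNAs, and ANE at 1 hour was lowest for both. The highest group mean exceeded the lowest by 2.18 (SE 0.94) for miR-451 and by 2.08 (SE 0.95) for miR-144 on the log2 scale. These extremes were picked from the values and were not tested. In miR-451 the order between them was PLA at 34 days, PLA at 1 hour, MTX at 34 days, NOCIA before therapy, CIA before therapy, NOCIA at 34 days, MTX at 1 hour, MS at 1 hour and MS at 34 days. In miR-144 it was PLA at 1 hour, PLA at 34 days, NOCIA before therapy, MTX at 34 days, NOCIA at 34 days, MS at 1 hour, MS at 34 days, CIA before therapy and MTX at 1 hour. The arrays of every pair of neighbours in either order overlapped, and no step between neighbours exceeded its SE.

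The 14 comparisons of the design ask whether disease, therapy or time moved the 2 miRNAs. In none of the 28 tests, 2 miRNAs in 14 comparisons, did limma's adjusted p pass 0.05, and 0 of 28 passed unadjusted. All 28 intervals of 95% hold 0, and each reaches 2.02 to 2.03 on the log2 scale to either side of its difference, so a change of 4-fold in a comparison could not be told from none. The study called miRNAs on more than 2-fold change and an unadjusted p below 0.05, and 0 of the 28 passed that. As counted here, a miRNA also had to be detected on every array of both groups to pass this threshold. Of all miRNAs, 17.6% passed it in MS at 34 days against CIA, 14.8% in MS against PLA at 34 days, 4.29% in ANE at 1 hour, 3.81% in MS against PLA at 1 hour, 3.33% in MS at 1 hour, 1.43% in MTX at 34 days, 0.952% in NOCIA at each time and 0.476% in the others.

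Before therapy the difference between CIA and NOCIA was -0.08 (log2, SE 0.94, 95% interval -2.10 to 1.94) for miR-451, with an adjusted p of 0.980 by limma. For miR-144 it was -1.18 (SE 0.95, interval -3.22 to 0.85), with an adjusted p of 0.938. Neither was called, beside 0.952% of the 210 miRNAs. The arthritic arrays lay on both sides of the healthy ones, so these 2 differences depend on which CIA replicate is kept. Without CIA replicate 2 the difference turned to 1.24 for miR-451 and 0.45 for miR-144. Without CIA replicate 1 it was -1.40 and -2.82. Arrays of both groups lay on slide 2.

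Against CIA before therapy, MS at 1 hour differed by -0.35 in miR-451 and 0.33 in miR-144, where 0% of the miRNAs were called. MTX at 1 hour differed by -0.20 in each (1.43% called). ANE at 1 hour differed by -0.84 and -0.27 (0.476% called). PLA at 1 hour differed by 0.72 and 1.26 (0.952% called). Neither miRNA was called in any of these, and all but PLA lay below CIA in miR-451, although without scaling between arrays MS turned to 0.55 and with quantile normalisation MTX turned to 0.060.

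At 34 days the differences from CIA before therapy were -0.79 in miR-451 and 0.23 in miR-144 for MS, where 19% of the 210 miRNAs were called and neither of these 2. For MTX they were 0.20 and 1.09 (0% called), and for PLA 0.75 and 1.24 (0% called). ANE gave the largest difference of all comparisons in miR-144, at 1.80 (SE 0.95, interval -0.23 to 3.84), where limma's unadjusted p was 0.0778 and 0% of the miRNAs were called. The ANE arrays did not overlap those of CIA in miR-144, as held for 32.9% of all miRNAs in that comparison. In miR-451 the ANE difference was 1.33 (interval -0.69 to 3.35), and the arrays overlapped. Without CIA replicate 2 the ANE difference was 0.17 in miR-144 and 0.012 in miR-451, and without CIA replicate 1 it was 3.44 and 2.65, so its size depends on which CIA array is kept. With normexp background correction it was 1.17 in miR-144. Without scaling the MS difference in miR-451 turned to 0.40. These 8 comparisons of treated arms with CIA share its 2 widely spaced arrays, so their directions are not independent of each other. CIA lay on slide 2 with ANE at 34 days, while the other treated groups lay on slides 1 and 3. For those groups, slide and arm cannot be told apart.

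In healthy animals NOCIA at 1 hour exceeded NOCIA before therapy by 0.98 in miR-451 (interval -1.04 to 2.99) and by 0.58 in miR-144. The former lay on slide 3 and the latter on slide 2, so time and slide cannot be told apart in this comparison. The arrays did not overlap in either miRNA, as held for 51.4% of all miRNAs there. Neither was called, beside 2.38% of the miRNAs. Without NOCIA at 1 hour replicate 2 the difference was 0.24 in miR-451 and 0.33 in miR-144, and without replicate 1 it was 1.71 and 0.83. With the 75th percentile taken over all miRNAs it was 0.57 and 0.17. At 34 days the healthy differences were -0.21 in miR-451 and -0.40 in miR-144, where 0.952% were called and neither of the 2.

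MS was also set against PLA within the same slide. At 34 days MS was at 12.57 ± 0.66 (mean ± SD, n = 2) in miR-451 and PLA at 14.11 ± 0.06, a difference of -1.54 (SE 0.94, interval -3.56 to 0.48). limma's adjusted p for that difference was 0.220, the lowest of the 28. The arrays did not overlap, and that held for 71% of the 210 miRNAs in this comparison. The share of all miRNAs called was 0%. Without scaling between arrays the miR-451 difference was -0.49 (limma adjusted p = 0.677). In miR-144 the difference was -1.01 (interval -3.04 to 1.03), again without overlap, but without scaling between arrays it was 0.036. At 1 hour MS differed from PLA by -1.06 in miR-451 and -0.93 in miR-144, where 0.952% were called and neither of the 2, and the miR-451 arrays did not overlap, as held for 24.3% of all miRNAs. These differences were -0.24 and -0.10 with the 75th percentile taken over all miRNAs, -0.60 and -0.46 without scaling between arrays, and -0.57 and -0.53 with quantile normalisation. Without MS at 1 hour replicate 2 that of miR-144 was -0.11, and without MS replicate 1 it was -1.74. MTX at 34 days differed from PLA by -0.55 and -0.15 (0% called).

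**Figure D3:**
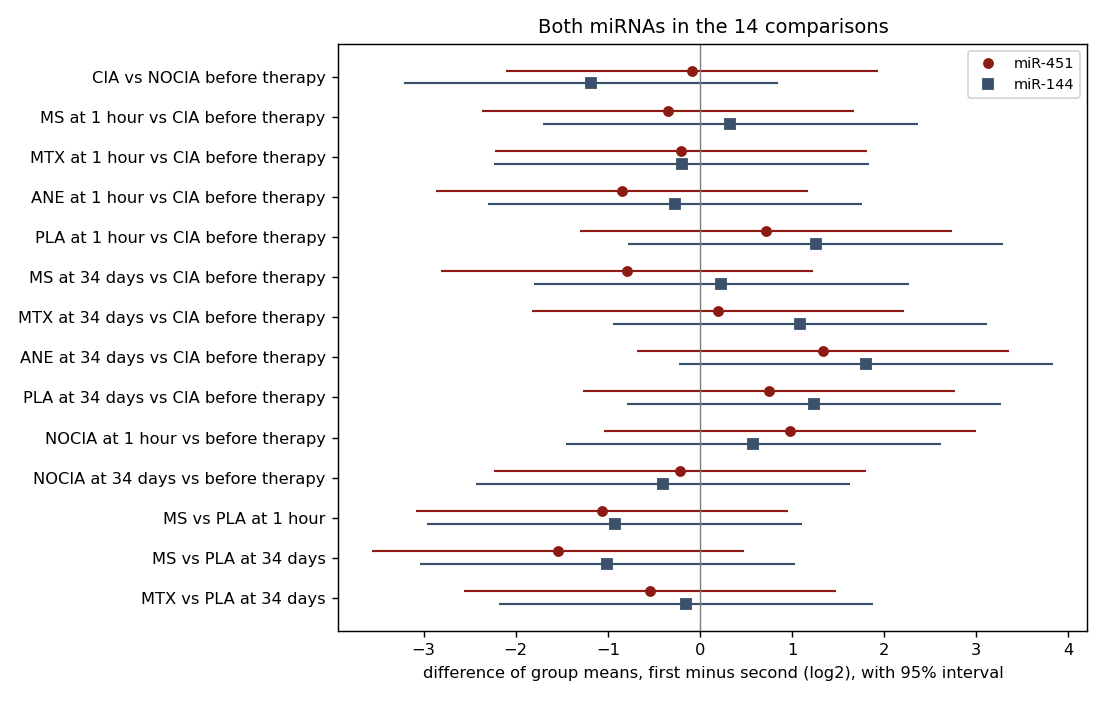
Difference of group means (log2, first group minus second) of miR-451 and miR-144 in the 14 comparisons, with 95% intervals from limma. Every interval crosses 0, and the difference farthest from 0 is that of ANE at 34 days against CIA in miR-144 (1.80).

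The 2 miRNAs moved together from array to array. Across the 24 arrays Pearson's r between miR-451 and miR-144 was 0.88 and Spearman's rho 0.87, with a permutation p of 1e-05 for each, the smallest that 100000 permutations can give. Adjusted over the 13 relations computed, the p-values were 0.00013 and 6.5e-05. Within slide 1 r was 0.97 (exact p = 2.48e-05), within slide 2 it was 0.90 (exact p = 0.000397) and within slide 3 it was 0.76 (exact p = 0.0245). Without the 2 arrays farthest from the median of miR-451, r was 0.84 (permutation p = 1e-05). It was 0.88 without any scaling between arrays. The relation thus held within each slide and did not rest on the 2 outermost arrays.

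To see which miRNAs followed miR-451 between replicates, a model with 12 group means and the miR-451 level as a covariate was fitted with limma to the 209 other miRNAs. This fit was chosen after the data were seen. Only 2 of 209 miRNAs (0.957%) were called, and 28 passed an unadjusted p of 0.05. The 2 called were the arms of the neighbouring hairpin. miR-144* changed by 0.96 (SE 0.05) log2 for each log2 of miR-451, with a limma adjusted p of 5.78e-08. miR-144 changed by 0.88 (SE 0.14), with an adjusted p of 0.00258. In 10 of 12 groups the replicate with more miR-451 also had more miR-144, and in 10 of 12 it had more miR-144*. The count alone does not set the 2 arms apart, since it was also 10 of 12 for miR-25, 9 for miR-16 and 8 each for miR-93, miR-181a and miR-142-3p.

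The 2 slopes were also fitted without parts of the data. That of miR-144* was 0.94 (SE 0.11, limma adjusted p = 0.00126) without CIA before therapy, ANE at 1 hour and MTX at 34 days, the 3 groups with the widest gaps in miR-451. Without the same groups the slope of miR-144 was 0.49 (SE 0.28, adjusted p = 1.00). Without slide 1 it was 0.95 (SE 0.23, limma unadjusted p = 0.0030, adjusted p = 0.314). Without slide 2 it was 0.74 (SE 0.18, limma unadjusted p = 0.0029, adjusted p = 0.088). Neither was called, although both passed unadjusted. Those 3 groups were picked for their gaps in miR-451, so leaving them out takes away much of the spread that the slope is fitted on. The SE of the miR-144 slope was 0.14 with all arrays. These fits therefore cannot decide whether the relation of miR-144 with miR-451 between replicates rested on those 3 groups. The slope of miR-144* was called in every one of these fits.

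**Figure D4:**
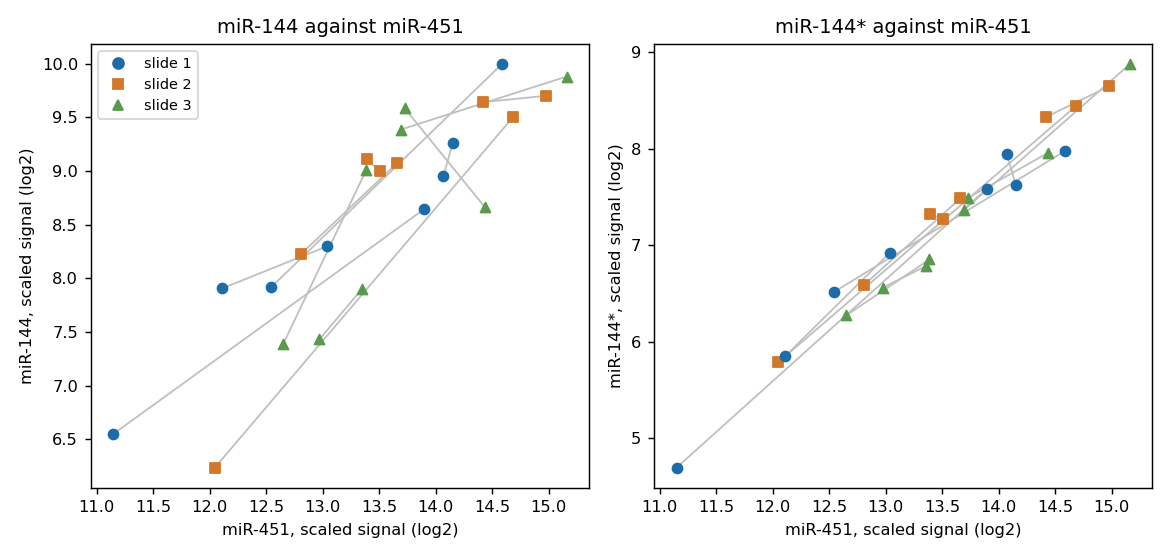
Scaled signal (log2) of miR-144 and of miR-144* against that of miR-451 on the 24 arrays, coloured by slide, with a line joining the 2 replicates of each group. The points of miR-144* (r = 0.99) lie closer to a line than those of miR-144 (r = 0.88).

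Differences between 2 miRNAs of the same array do not change when the whole array is multiplied by a factor, as in the scaling used here. Quantile normalisation or the authors' deposited log2 values can change them. Only their change from array to array is described here, with no test. miR-451 minus miR-144* stayed between 6.03 and 6.61 (log2), with an SD of 0.17 over the 24 arrays. miR-451 minus miR-144 ran from 4.14 to 5.81, with an SD of 0.50. miR-144 minus miR-144*, the 2 arms of a single hairpin, ran from 0.45 to 2.16, with an SD of 0.48. The level of miR-144* thus followed the neighbouring miR-451 more closely than it followed its own partner arm. In the authors' log2 values, r of miR-144* was 0.95 with miR-451 and 0.88 with miR-144.

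The lowest difference between the arms of the miR-144 hairpin, 0.45, was on CIA before therapy replicate 2, where replicate 1 had 1.06. NOCIA before therapy had 1.78 and 1.73. NOCIA at 1 hour had 2.02 and 1.00, and NOCIA at 34 days had 1.64 and 1.59. ANE at 34 days, on the same slide, had 1.31 and 1.05. On that slide the 2 CIA arrays thus lay below the 4 NOCIA arrays, but so did both ANE arrays, and ANE replicate 2 was level with CIA replicate 1. CIA replicate 1 also was within the range of the healthy arrays at 1 hour on another slide. The difference was also under 1 on PLA at 1 hour replicate 1 (0.71) and MTX at 1 hour replicate 1 (0.87). It was over 2 on 5 arrays: MS replicate 1 at 1 hour (2.16) and at 34 days (2.05), PLA at 1 hour replicate 2 (2.10), NOCIA at 1 hour replicate 1 (2.02) and MTX at 34 days replicate 2 (2.02). The first 3 of these arrays also had the lowest miR-150 of the series, at 10.26, 9.55 and 11.65, and the part of that in the difference was not tested.

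The 3 miRNAs most like each member over the 24 arrays, among 130 others detected on every array, were found by Pearson's r and, being chosen for it, have no test. For miR-451 they were miR-144* (r = 0.99), miR-106b (0.75) and miR-25 (0.68), where the median of the 130 was -0.17. For miR-144 they were miR-144* (0.89), miR-101a (0.58) and miR-106b (0.54). Without scaling between arrays, r with miR-451 was 0.98 for miR-144*, 0.42 for miR-106b and 0.43 for miR-25. miR-106b and miR-25 come from a shared cluster on chromosome 12 at another locus, miR-106b at chr12:22157103-22157123 and miR-25 at chr12:22156652-22156673, both on the minus strand. The sequences of the 3 are printed to show which share a seed with the pair, again with bases 2 to 8 in capitals.
miR-106b: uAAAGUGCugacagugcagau
miR-25: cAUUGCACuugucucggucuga
miR-101a: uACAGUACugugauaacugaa
miR-101a has bases 2 to 7 in common with miR-144, and the others have no seed in common with either member.

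Other miRNAs that are abundant in red cells but also made by leukocytes, namely miR-16, miR-92a, miR-25, miR-93, miR-15b and miR-185, were far steadier. Their ranges over the 24 arrays were 0.87 to 1.25 (log2), against 4.01 for miR-451 and 3.76 for miR-144. None of the 6 was called in the fit on miR-451, and their slopes lay between -0.14 and 0.13. miR-16 correlated with miR-451 across arrays with r = 0.66 and rho = 0.80 (permutation p adjusted over the 13 relations 0.00204 and 6.5e-05). Within the slides r was 0.91 (exact p = 0.003), 0.72 (exact p = 0.0489) and 0.48 (exact p = 0.23), and without the 2 outermost arrays it was 0.58. Without scaling between arrays r was 0.42 (permutation p = 0.0432). The slope of miR-16 on miR-451 within groups was 0.13 (SE 0.06) and was not called (limma adjusted p = 0.344).

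miR-92a, of the miR-17-92 cluster, ran the other way, with r = -0.67 and rho = -0.65 against miR-451 (permutation p adjusted over the 13 relations 0.00149 and 0.00394). Within the slides r was -0.82 (exact p = 0.00925), -0.82 (exact p = 0.0138) and -0.14 (exact p = 0.745), and without the 2 outermost arrays it was -0.62. Without scaling between arrays r was -0.06, and in the authors' log2 values it was -0.44. The relation with miR-92a thus depends on the scaling.

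The other 10 relations set each member against the summed signal, miR-150, miR-223 and miR-126 of platelets, and miR-144 also against miR-16 and miR-92a. Their r lay between -0.42 and 0.37 and their adjusted permutation p between 0.105 and 0.823. Within slides r ranged from -0.77 to 0.83. By rank alone miR-144 with miR-16 passed, with rho = 0.52 (adjusted permutation p = 0.0328) where r was 0.37. Slopes on miR-451 within groups were not called for the lymphocyte list (4 measured, -0.07 to 0.12), for miR-223 (-0.07) or for miR-126 (-0.17).

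**Figure D5:**
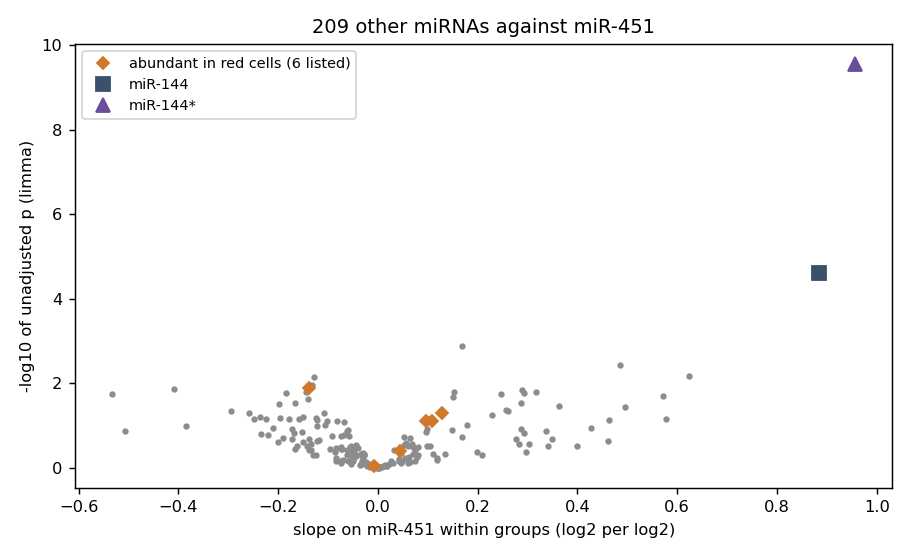
Slope on miR-451 within groups (log2 per log2) against -log10 of limma's unadjusted p for the 209 other miRNAs, with miR-144, miR-144* and the 6 miRNAs abundant in red cells marked. miR-144* (slope 0.96) and miR-144 (0.88) stand alone at the upper right, and the 6 lie between -0.14 and 0.13.

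The 14 comparisons were also fitted with the miR-451 level as a covariate. In 11 of 14 the number of calls among the 209 other miRNAs was the same with and without it, and in 5 of those it was 0 both ways. The number rose from 2 to 4 in CIA against NOCIA before therapy and from 0 to 2 in ANE at 34 days. In MS at 34 days against CIA before therapy it was 42 without and 0 with the covariate, while those passing an unadjusted p of 0.05 were 102 and 89 by limma. That count is unsteady in itself, since it lay between 0 and 137 over 14 other settings without the covariate. In MS against PLA at 34 days 84 miRNAs passed unadjusted without and 48 with it, and 0 were called by limma either way. In ANE at 1 hour 38 passed unadjusted without and 21 with it, and 1 was called either way. Equal calls thus did not mean that the covariate left the unadjusted counts as they were. How much red cell material contributed to these counts was not tested.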

How the data were processed

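Total RNA of PBMC was labelled with Cy3 and hybridised to 24 single-colour Agilent rat miRNA arrays (V16.0). Per the file headers, Feature Extraction 10.7.3.1 from Agilent made the scanner output. These deposited files hold linear intensity values, background-corrected but not normalised between arrays, and the software summed the spots of each miRNA to a total signal with a detection call. The authors also deposited a table of log2 values of the same arrays, of which each of the 24 columns matched its own array best. Its normalisation is not settled, since the labels name RMA and the study's methods name AgiMicroRna. It was used as an alternative.

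Total signals were scaled so that their 75th percentile over the 132 miRNAs detected on all arrays was equal. Scale factors ran from 0.452 (MS replicate 1 of hour 1) to 1.42 (NOCIA before therapy replicate 2). A floor of 5.76 (2.53 on the log2 scale) was applied before the log2. Tests covered the 210 miRNAs with detection on 3 arrays or more and used limma 3.58.1 under R 4.3.3 (lmFit, eBayes, 12 group means, 12 residual degrees of freedom, two-sided), with Benjamini-Hochberg adjustment over the 210 and a call at an adjusted p under 0.05. Relations across arrays were tested two-sided with 100000 permutations, or all 40320 pairings within a slide (scipy 1.17.1). The fits were tested on simulated data. The number of arrays limits the precision.

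Groups and replicate numbers came from the sample labels. The 2 arrays of a group shared a slide, with 4 groups per slide and scan times dividing the arrays in the same way, so that slide and group cannot be told apart between slides. The members, lists and tests were chosen with earlier results of these data known. The miRNAs named are the members, the 3 most like each, and lists of red cell, lymphocyte, myeloid, leukocyte, platelet and liver miRNAs. Of the lists, miR-486 and miR-155 are not on the array. miR-144* and miR-451* were added as the other arms of the hairpins. Sequences are from the RefSeq table for GRCr8, and array names were assigned to arms by the older star convention. Alternatives were other scalings and background correction, the authors' table, other filters and floors, the replicate number as a block, a fit to only the groups compared, leaving out single arrays, and the threshold of the study.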

Additional observations from a re-analysis of the deposited data

How the results depend on the processing

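In the 14 comparisons no alternative made limma call either miRNA, and the sign of a difference changed only as given here (log2). Without scaling between arrays, it became 0.050 for miR-451 in CIA vs NOCIA before therapy, 0.55 for miR-451 in MS at 1 hour vs CIA before therapy, 0.20 for miR-144 in ANE at 1 hour vs CIA before therapy, 0.40 for miR-451 in MS at 34 days vs CIA before therapy, 0.37 for miR-451 in NOCIA at 34 days vs before therapy, 0.18 for miR-144 in NOCIA at 34 days vs before therapy, 0.036 for miR-144 in MS vs PLA at 34 days, 0.29 for miR-144 in MTX vs PLA at 34 days. With the 75th percentile over all miRNAs, it became 0.13 for miR-451 in CIA vs NOCIA before therapy, -0.24 for miR-451 in PLA at 1 hour vs CIA before therapy, 0.058 for miR-451 in NOCIA at 34 days vs before therapy. With quantile normalisation, it became 0.29 for miR-451 in MS at 1 hour vs CIA before therapy, 0.060 for miR-451 in MTX at 1 hour vs CIA before therapy. With normexp on the median spot signal, it became -0.0088 for miR-144 in MS at 1 hour vs CIA before therapy, -0.24 for miR-144 in MS at 34 days vs CIA before therapy. In the authors' table, it became 0.31 for miR-451 in MS at 1 hour vs CIA before therapy. For ANE at 34 days, NOCIA at 1 hour and MS against PLA, alternatives that changed the size but not the sign by over 1.5 times stand beside the differences, other than -0.66 in the authors' table for miR-451 in MS vs PLA at 1 hour and, there, -0.69 without MS replicate 2 and -0.71 without PLA replicate 1 for miR-451, and -0.47 without PLA replicate 2 for miR-144. No sign changed with other filters, no floor, only the arrays compared or the replicate block. Leaving out 1 array at a time, a lone array being assumed to vary like the other groups, gave these ranges where the sign changed: -1.91 to 1.36 for miR-144 in ANE at 1 hour vs CIA before therapy, -2.82 to 0.45 for miR-144 in CIA vs NOCIA before therapy, -1.30 to 1.96 for miR-144 in MS at 1 hour vs CIA before therapy, -1.40 to 1.87 for miR-144 in MS at 34 days vs CIA before therapy, -1.83 to 1.43 for miR-144 in MTX at 1 hour vs CIA before therapy, -0.55 to 2.72 for miR-144 in MTX at 34 days vs CIA before therapy, -1.19 to 0.89 for miR-144 in MTX vs PLA at 34 days, -0.83 to 0.022 for miR-144 in NOCIA at 34 days vs before therapy, -0.38 to 2.89 for miR-144 in PLA at 1 hour vs CIA before therapy, -0.39 to 2.87 for miR-144 in PLA at 34 days vs CIA before therapy, -2.22 to 0.53 for miR-451 in ANE at 1 hour vs CIA before therapy, -1.40 to 1.24 for miR-451 in CIA vs NOCIA before therapy, -1.67 to 0.97 for miR-451 in MS at 1 hour vs CIA before therapy, -2.11 to 0.53 for miR-451 in MS at 34 days vs CIA before therapy, -1.52 to 1.12 for miR-451 in MTX at 1 hour vs CIA before therapy, -1.12 to 1.52 for miR-451 in MTX at 34 days vs CIA before therapy, -1.57 to 0.48 for miR-451 in MTX vs PLA at 34 days, -0.64 to 0.21 for miR-451 in NOCIA at 34 days vs before therapy, -0.60 to 2.03 for miR-451 in PLA at 1 hour vs CIA before therapy, -0.57 to 2.06 for miR-451 in PLA at 34 days vs CIA before therapy. The arrays whose removal turned a sign were CIA replicates 1 and 2, MS at 1 hour replicates 1 and 2, MTX at 1 hour replicate 1, ANE at 1 hour replicate 1, MTX at 34 days replicates 1 and 2, and NOCIA at 34 days replicate 1. The planned slide block could not be fitted, since each group lies on 1 slide. The main fits did not pair samples by replicate number. Over 66 pairs of groups the deviations of same-numbered arrays correlated with r from -0.77 to 0.84 (median -0.03), 26 of them over 0.1. Such correlations cannot settle whether the numbers pair samples. With the replicate block the difference of MS and PLA at 34 days in miR-451 was the same, -1.54 (limma adjusted p = 0.217). F across the 12 groups stayed between 0.81 and 1.97 for miR-451 and between 0.98 and 2.72 for miR-144 under 33 alternatives each, with limma adjusted p between 0.293 and 0.833. The relation of miR-451 with miR-144 kept its sign and passed under each alternative. Without scaling, r of miR-451 was 0.19 with the summed signal, -0.017 with miR-150, -0.00084 with miR-223, 0.017 with miR-126 and -0.055 with miR-92a, and r of miR-144 was 0.33 with the summed signal, -0.31 with miR-150, 0.20 with miR-223, 0.27 with miR-126, 0.43 with miR-16 and 0.17 with miR-92a. In the authors' table miR-144 gave 0.51 with miR-16 and -0.27 with miR-92a. Within slide 3, miR-451 gave 0.48 with miR-16 and -0.14 with miR-92a. The slope of miR-144 on miR-451 lost its call without slide 1 (0.95), without slide 2 (0.74) and without the 3 groups of widest gaps (0.49). That slope and its alternatives, and those of the relations other than with miR-144, were chosen after seeing the data. The causes were not tested. With 2 arrays a group, a measured difference under about 4-fold in these 2 miRNAs could not pass limma's unadjusted p of 0.05. A call on the adjusted p needs at least that, so 4-fold is not a limit above which changes would be found.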

Other observations

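Among the marker lists, the liver miRNA miR-122 was detected on 9 of 24 arrays and spanned 6.43 (log2) over the series, from the floor at 2.53 to 8.96. Its slope on miR-451 within groups was -0.38 and was not called by limma (adjusted p = 0.405). The platelet list was sparse, with miR-126 detected on 24 of 24 arrays between 5.33 and 7.58 but miR-126* and miR-199a-3p on 2 of 24 each. Of the leukocyte miRNAs, miR-142-3p was the steadiest, with a range of 0.72 (log2) over the 24 arrays, and miR-150 was the widest, with 3.92. The SD of miR-150 between replicates was 0.95, the 7th widest of 132 miRNAs, close to that of the red cell miRNAs, yet its slope on miR-451 within groups was 0.12 (SE 0.27, limma adjusted p = 0.890).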
